A study of Equus caballus with 6 samples.

Results

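A piRNA 5' end was defined here by its first 20 nt, and the 6627 ends described below are those whose sequences were found at each of the 8 lengths from 25 to 32 nt. They were selected on read counts, since a length counts as present when at least 1 sequence of that length has a read in any of the 6 libraries. They are 6627 of 2834216 5' ends (0.234%) and hold 199546 of the 4936717 distinct sequences (4.04%). The small RNAs came from testis of the Mongolian horse, with 3 libraries from the immature and 3 from the mature organ, and no treatment, strain difference or age is given for either group. The labels do not say whether the 3 libraries of a group are separate animals, so the p-values measure the spread between these libraries only. The table of counts holds no messenger RNA, so the labelled tissue was not checked against markers. It holds 1382083, 2347351 and 1462339 reads in immature replicates 1, 2 and 3 and 4139452, 4032042 and 4550970 in mature replicates 1, 2 and 3.

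In the germ line, PIWI proteins bind piRNAs, which direct silencing of transposons and other targets. Their 5' end is set by a cut of the precursor, often before a uridine, and their 3' end is then set by a further cut or by trimming down to the size that the bound PIWI protein holds, followed by methylation of the last nucleotide. Different PIWI proteins hold piRNAs of different length, and in mammals the proteins present change as germ cells pass from the prenatal and early postnatal testis to meiosis. A 5' end with many 3' ends therefore shows how 3' ends are placed along a single sequence.

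The 5' ends below were named by rule: those with the most reads in either group, those with the largest change of length, and those with the largest second length peak. Each is shown by its trunk, the sequence obtained by extending the first 20 nt base by base with the base most reads carry. Capitals mark the bases beyond the shorter of the end's most frequent lengths. They do not mean that reads of the longer length follow the trunk. For uniq_1462380 the most read 30 nt sequence has 6 bases off the trunk. T stands for uridine, as in the table. The sequence shown at the start matches the 5' part of mammalian tRNA for glycine, an amino acid carrier of translation, and tRNAs also yield 5' fragments of this size.
uniq_2076883: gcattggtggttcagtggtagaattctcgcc
uniq_4072286: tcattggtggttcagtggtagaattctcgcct
uniq_2330440: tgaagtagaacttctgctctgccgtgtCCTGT
uniq_172762: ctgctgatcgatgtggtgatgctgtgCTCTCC
uniq_170669: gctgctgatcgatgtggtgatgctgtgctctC
uniq_2089930: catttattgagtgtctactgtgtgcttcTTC
uniq_5184017: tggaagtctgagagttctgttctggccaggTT
uniq_1435444: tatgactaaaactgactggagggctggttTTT
uniq_4019050: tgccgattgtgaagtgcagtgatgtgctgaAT
uniq_1462380: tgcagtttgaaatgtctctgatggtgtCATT
uniq_3306060: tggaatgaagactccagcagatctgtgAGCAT
uniq_5045757: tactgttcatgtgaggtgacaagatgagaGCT
uniq_1419887: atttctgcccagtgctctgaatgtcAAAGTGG
uniq_3071347: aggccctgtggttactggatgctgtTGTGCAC

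The rule picks well-read ends. The median number of reads was 175 per selected end, against 67 for ends found at 7 lengths, 33 at 6, 16 at 5 and 1 at a single length. In 3408 of the selected ends (51.4%) at least 1 length rested on 1 read in all libraries together, and the length with the fewest reads was 32 nt in 3065 ends and 25 nt in 2560. Just inside the rule, uniq_3149280 had 1 read at 25 nt among 7295, and uniq_3308986 had 1 read at 32 nt among 6676. Just outside it, uniq_274482 had no read at 25 nt among 148083. The deeper mature libraries supplied most memberships. All 8 lengths were present within mature testis alone for 5267 ends, within immature testis alone for 1078, within each group for 432 and within neither group for 714. No immature read was found for 192 ends and no mature read for 57.

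Most of the selected ends began with uridine. It stood at position 1 in 93.6% of the 6627 ends and in 80.4% of all ends, and the share was 87.9%, 89.4% and 91.7% for ends found at 5, 6 and 7 lengths. Adenine at position 10, the base expected of piRNAs made from the opposite strand by slicing, was found in 29.7% of the selected and 30.05% of all ends. Among reads of the selected ends, uridine began 43.6%, 39.8% and 47.6% in the immature libraries and 88.9%, 92.2% and 92.7% in the mature ones. Without 8 ends that begin within 2 mismatches of a tRNA 5' fragment, these shares were 79.7%, 87.3% and 86.6% and 93.0%, 92.9% and 93.9%.

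The tRNA fragments made up most of the selected reads in immature testis. Those 8 ends held 61.0%, 62.8% and 50.9% of the selected reads in the immature libraries and 8.38%, 2.04% and 2.67% in the mature ones. All selected ends together made up 16.8%, 22.6% and 16.1% of table reads in immature testis and 29.8%, 29.9% and 29.8% in mature testis. Every mature library lay above every immature library, with means of 18.5% ± 3.54 and 29.9% ± 0.0728 (SD, n = 3 each, exact two-sided permutation p = 0.1, the smallest that 3 against 3 libraries can give). Without the 8 tRNA ends the means were 7.62% ± 0.936 and 28.5% ± 1.09. Since the rule drew mainly on mature reads, this share is a description of the choice as much as of the testes.

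Length within the selected reads depended on those few ends. Reads of 29 to 32 nt, called long here, were 73.5%, 78.8% and 68.5% of selected reads in the immature libraries and 77.1%, 75.9% and 74.9% in the mature ones. The groups overlapped, and the means of 73.6% ± 5.13 and 75.9% ± 1.10 did not differ beyond the spread (SD, n = 3 each, exact permutation p = 0.6). The difference of 2.38 points turned to -0.16 without immature replicate 3. Without the 8 tRNA ends the libraries separated. The long share was then 41.7%, 50.2% and 45.3% in immature and 75.3%, 75.6% and 74.4% in mature testis, with means of 45.7% ± 4.25 and 75.1% ± 0.608 (exact permutation p = 0.1). Reads of all ends that were not selected had long shares of 27.5% ± 0.468 and 69.6% ± 0.901.

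Without the tRNA ends, the commonest lengths in immature testis were 29 nt (18.3% ± 0.441) and 27 nt (18.3% ± 2.17), with 28 nt at 15.0% ± 1.13, 26 nt at 14.9% ± 0.852 and 30 nt at 13.8% ± 2.66 (SD, n = 3). In mature testis 30 nt led with 29.2% ± 0.651, followed by 29 nt with 22.4% ± 2.15 and 31 nt with 18.9% ± 2.04. The share of 27 nt was 20.6%, 16.3% and 17.97% in the immature and 6.45%, 7.01% and 6.94% in the mature libraries. The share of 30 nt was 11.1%, 16.4% and 14.1% in the immature and 29.9%, 28.6% and 29.1% in the mature libraries. For both lengths no library of one group reached the other. The lengths at the borders of the table, 25 nt and 32 nt, held 6.03% ± 0.499 and 3.45% ± 0.234 in immature and 2.46% ± 0.303 and 4.59% ± 0.966 in mature testis. Before leaving the tRNA ends out, 31 nt was the commonest length in immature testis, at 38.8%, 54.1% and 43.4%, and it held 20.6%, 21.6% and 19.0% in mature testis.

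Single ends had a preferred length in spite of their many 3' ends. The profile of an end was read where it had at least 10 reads in each library, which 557 of the 6627 ends had. The mode, the length with the highest mean share of an end's reads in a group, held a median of 40.8% of reads in immature testis (lowest 19.6%, highest 98.9%) and 44.2% in mature testis (lowest 18.6%, highest 98.2%). A median of 4 of the 8 lengths held at least 5% of an end's reads in each group. All 8 lengths passed 5% in none of the 557 ends in immature testis and in 5 in mature testis.

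Modes lay at longer lengths in mature testis. In immature testis they lay at 25, 26, 27, 28, 29, 30, 31 and 32 nt in 22, 78, 101, 69, 118, 100, 58 and 11 ends. In mature testis the same 557 ends had them there in 11, 36, 40, 35, 157, 160, 100 and 18 cases. Long modes were thus held by 287 ends (51.5%) in immature and 435 ends (78.1%) in mature testis. The mode was the same in both groups for 343 ends, longer in mature testis for 195 and longer in immature testis for 19. Among the 195, it was longer by 1 nt in 49, 2 nt in 43, 3 nt in 53, 4 nt in 33, 5 nt in 12, 6 nt in 4 and 7 nt in 1. In the wider set of 5040 ends with at least 10 reads in each mature library, 82.3% had a long mode there, with 1649 at 30 nt, 1146 at 29 nt and 1111 at 31 nt. Modes are given for selected ends only, so their shift between the groups is not set against other ends here.

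Many profiles had a second peak in this table. Sequences left out when the table was made would lower the share of their length, and this was not checked. A second mode was counted when it was a local maximum not adjacent to the mode, held at least 10% of reads, and had a length between the peaks at no more than 50% of the lower peak. Over all 6 libraries 234 of the 557 ends had one, with 219 in immature testis, 193 in mature testis and 110 in both. The peaks lay 2, 3, 4, 5 and 6 nt apart in 59, 74, 57, 33 and 11 ends. The commonest pairs were 26 and 30 nt in 28 ends, 26 and 29 nt in 25, 27 and 30 nt in 25, and 29 and 31 nt in 21. The larger peak differed between the groups. The longer peak held 24.5% ± 0.368 of an end's reads in immature and 39.9% ± 1.36 in mature testis, and the shorter peak held 33.1% ± 1.16 and 19.5% ± 1.04 (means over the 234 ends, SD over 3 libraries, exact permutation p = 0.1 for each). The longer peak was the larger in 85 ends in immature and 181 ends in mature testis.

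The ends named for the largest second mode were chosen on the mean over all 6 libraries. The end uniq_5045757 put 41.7%, 48.5% and 58.3% of its reads at 29 nt and 41.7%, 33.3% and 29.2% at 31 nt in the immature libraries, and 51.0%, 36.7% and 44.8% at 29 nt and 40.6%, 55.4% and 43.1% at 31 nt in the mature ones. Between those peaks, 30 nt held no read in immature and 0.654% ± 0.203 in mature testis. The immature values rest on 12, 66 and 24 reads, where a count of 0 allows a share of up to 25%, 4.55% and 12.5%, and both peaks overlapped between the groups. The end uniq_1419887 had peaks 5 nt apart, with 44.5% ± 3.20 at 25 nt and 34.1% ± 7.95 at 30 nt in immature and 40.4% ± 6.49 and 36.1% ± 8.36 in mature testis (SD, n = 3). At 27 nt it had no read in immature testis, which allows up to 5.66%, 3.61% and 3.03%, and 28 nt held 1.08% ± 1.02. The end uniq_3071347 had 28.9% ± 5.20 at 25 nt and 35.7% ± 11.3 at 27 nt in immature testis, and 39.7% ± 9.09 and 33.4% ± 9.24 in mature testis, with 26 nt lower at 18.6% ± 6.96 and 11.6% ± 3.33. In immature testis that 26 nt share is above 50% of the lower peak, so the end has no second mode there by the rule. None of the 3 was called changed in its ratio of long to short reads (edgeR adjusted p = 0.107, 0.709 and 0.418). With long taken as 28 to 32 nt, uniq_5045757 was called longer in mature testis (log2 change 1.63, edgeR adjusted p = 0.0236).

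The ratio of long (29 to 32 nt) to short (25 to 28 nt) reads was tested within each 5' end and library, so that no scaling between libraries enters. The test, edgeR's quasi-likelihood test of the length class by group term with Benjamini-Hochberg adjustment, was run over all 1517 ends of the table with at least 10 reads in each library. At an adjusted p under 0.05 it called 304 of the 557 selected ends (54.6%) longer in mature testis, against a background of 48.3% of all tested ends. It called 0 selected ends shorter, against a background of 0.527%, while DESeq2 also called 0, and 822 of the 1517 ends had an unadjusted p under 0.05 in either direction. The share of selected ends called longer thus lay near that of all tested ends. Their median log2 change was 1.27, and that of all tested ends 1.33. The long share per end had a median of 44.6% in immature and 73.2% in mature testis. It was higher in every mature than in every immature library for 330 ends (59.2%), against a background of 52.0% of all tested ends, and lower for 4 (0.718%), against a background of 2.04%.

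The pool of all table reads also had a higher long share in mature testis. With each library's total of long and of short reads as the baseline, the change of ratio was called below that of the pool for 226 selected ends (40.6%), against a background of 32.2%, and above it for 33 (5.92%), against a background of 7.32%. The 226 include ends with a lower ratio in mature testis that was not called on its own, such as uniq_2076883 and uniq_2089930 (log2 change -0.48 and -0.45). The median relative to the pool was -0.85 on the log2 scale for the selected ends and -0.71 for all tested ends. Restricting the count to sequences on the trunk, which removes reads of other sequences that share the first 20 nt, left 335 selected ends with enough reads. It called 165 of them longer (49.3%), against a background of 41.3% of 907 tested ends, and 0 shorter, against a background of 0.110%, and 434 of the 907 ends had an unadjusted edgeR p under 0.05.

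The 3 largest rises were counted, as in the main test, over all sequences that share the first 20 nt. They were picked by their size among the called ends, so large values were favoured by the choice. The end uniq_4019050 had 55.6%, 64.7% and 61.1% long reads in the immature and 97.8%, 97.6% and 100% in the mature libraries. All mature libraries lay above all immature ones, with a log2 change of the ratio of 5.08 ± 0.67 (SE, edgeR adjusted p = 1.06e-09). Its lengths of 26 and 27 nt held 13.3% ± 11.7 and 16.9% ± 5.23 of reads in immature testis and 0.403% ± 0.374 and 0.718% ± 0.708 in mature testis. The immature values rest on 18, 17 and 18 reads.

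The end uniq_3306060 had 33.3%, 20.7% and 59.1% long reads in the immature and 90.0%, 94.7% and 97.6% in the mature libraries (log2 change 4.60 ± 0.64, SE, edgeR adjusted p = 4.16e-09). Its mode was 27 nt with 32.5% ± 9.36 in immature testis and 30 nt with 44.3% ± 10.3 in mature testis, where 27 nt fell to 3.22% ± 2.93. The immature values rest on 12, 29 and 22 reads. The end uniq_1462380 had long shares of 0%, 14.8% and 0% (a count of 0 allows up to 13.0% and 10.3%) against 73.3%, 61.1% and 56.5%, again without overlap (log2 change 4.89 ± 0.78, SE, edgeR adjusted p = 1.37e-07). These values rest on 23, 27 and 29 immature and 15, 36 and 23 mature reads. All its long immature reads are in immature replicate 2, and without that library the fitted log2 change was 9.56. The most read sequence in immature testis follows the trunk, and the most read one in mature testis leaves it after base 23, with capitals here marking the bases off the trunk.
uniq_1462380: tgcagtttgaaatgtctctgatggtgt
uniq_1412849: tgcagtttgaaatgtctctgatgTCAtTGG
The 27 nt sequence had 1.4, 3.8 and 4.1 CPM (counts scaled to a common total of table reads per library) in the immature libraries and at most 0.66 in the mature ones. The 30 nt sequence had no read in immature testis, which allows up to 2.17, 1.28 and 2.05 CPM (3 counts, counting error only), and 0.48, 1.49 and 1.10 CPM in mature testis. The most read sequences of this end thus differed between the groups in more than length. Whether its rise is a change of length along a single sequence was not tested.

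The most read ends were picked by their mean CPM in a group, so level changes towards that group were favoured by the choice. Among them, the tRNA-Gly fragment uniq_2076883 stood first in immature testis. It had 79092, 124949 and 73519 CPM in the immature and 14031, 2625 and 3890 CPM in the mature libraries. All immature libraries were higher, and mature replicate 1 stood above the other mature libraries. Its log2 change of level was -5.93 ± 0.92 with TMM scaling and -3.76 ± 1.13 with library totals (SE, edgeR adjusted p = 4.11e-10 and 0.00101). Its profile had a single mode at 31 nt, with 57.8%, 82.4% and 81.6% in the immature and 85.2%, 64.5% and 68.5% in the mature libraries. At 30 nt immature replicate 1 stood apart, with 34.7% against 11.7% and 9.21% in the other immature libraries. The long share, 95.7% ± 1.72 and 93.9% ± 3.01, was not called changed (edgeR adjusted p = 0.491). Of the 7 tRNA ends with enough reads for the ratio test, 1 was called longer in mature testis.

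The end uniq_4072286 is a relative of the tRNA-Gly fragment that differs from it in its first base and is among the 5 most read selected ends in mature testis. It had 2742, 485 and 580 CPM in the immature and 7968, 1416 and 2357 CPM in the mature libraries. The groups overlapped, and its level was not called changed with TMM scaling (log2 change -0.64 ± 0.61, SE, edgeR adjusted p = 0.363) but passed as higher in mature testis when scaled by library totals (1.63 ± 0.79, adjusted p = 0.042). In each group its replicate 1 was the highest. It put 37.2%, 55.5% and 77.5% of reads at 32 nt in the immature and 75.6%, 74.4% and 76.4% in the mature libraries. It had exactly 1 sequence at each length, 8 in all for 55193 reads, while uniq_2076883 had 141 sequences for 596490 reads. Of the 6627 ends, 110 had 1 sequence per length, and the next most read of these had 5111 reads.

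Beyond the tRNA fragments, 3 ends led in immature testis. They were picked by their immature CPM, so their higher immature level is no separate finding. The end uniq_2330440 had 2790, 2665 and 2757 CPM in the immature and 141, 196 and 189 CPM in the mature libraries, far apart (log2 change of level -6.16 ± 0.77 with TMM scaling and -3.96 ± 0.83 with library totals, SE, edgeR adjusted p = 3.62e-15 and 3.95e-06). It rose in length, from long shares of 27.3%, 26.3% and 25.3% to 52.9%, 41.3% and 52.0% (log2 change of the ratio 1.41 ± 0.30, SE, edgeR adjusted p = 5.29e-05). Its mode stayed at 27 nt, with 34.5% ± 2.28 and 26.8% ± 0.191, while 26 nt went from 30.8% ± 1.90 to 11.8% ± 6.28 and 31 nt from 1.72% ± 0.340 to 11.9% ± 1.08. It had 698 sequences, the most of any selected end, and several of the common ones leave the trunk after base 21.
uniq_2330440: tgaagtagaacttctgctctgccgtgt
uniq_2339917: tgaagtagaacttctgctctgGGTGTG
The sequence off the trunk had 202 ± 26.5 CPM in the immature libraries and 1.76 ± 1.05 CPM in the mature ones, and the trunk sequence 373 ± 77.6 and 24.5 ± 4.16 CPM (SD, n = 3). The mix of sequences thus differed between the groups as well. Whether the higher long share is a change of length along a single sequence was not tested.

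The ends uniq_170669 and uniq_172762 lie on one sequence with starts 1 nt apart. The outer start, uniq_170669, had 3617, 1566 and 1543 CPM in the immature and 113, 135 and 70.5 CPM in the mature libraries. The inner start, uniq_172762, had 3300, 1778 and 1863 CPM and 148, 189 and 194 CPM. Neither overlapped between groups, and immature replicate 1 was the highest for both. The outer start put 46.5% ± 4.65 of immature and 53.9% ± 0.970 of mature reads at 31 nt, which ends at the same base as a 30 nt read of the inner start. The inner start put 17.1% ± 4.47 and 20.9% ± 1.56 there, 26.8% ± 4.78 and 19.2% ± 2.56 at 26 nt, and 26.1% ± 5.49 and 23.0% ± 1.75 at 27 nt, which held the most in mature testis. The long share of the outer start was called higher in mature testis (log2 change of the ratio 0.79 ± 0.31, SE, edgeR adjusted p = 0.0251). That call was lost with DESeq2, with long taken as 28 to 32 nt, and without immature replicate 3 or any of the mature replicates. The inner start was not called (0.62 ± 0.30, adjusted p = 0.0821), except without immature replicate 1 (0.95, adjusted p = 0.00343), and it was 0.30 without immature replicate 3. Relative to the pool both starts were called lower in mature testis, by -1.36 and -1.52 on the log2 scale (edgeR adjusted p = 0.000153 and 1.43e-05).

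The ends that led in mature testis had narrow profiles. The end uniq_2089930 had 160, 1135 and 485 CPM in the immature and 7165, 8092 and 6431 CPM in the mature libraries. It placed 64.3%, 54.5% and 64.3% of immature and 74.0%, 62.8% and 70.2% of mature reads at 28 nt, a short length, and its ratio was not called changed (edgeR adjusted p = 0.334). The end uniq_5184017 had 118, 550 and 453 CPM and 4952, 4350 and 4495 CPM, with 67.3% ± 5.98 of immature and 72.2% ± 3.05 of mature reads at 30 nt. The end uniq_1435444 had 85.4, 230 and 204 CPM and 2417, 3097 and 3336 CPM, with 67.4% ± 6.73 and 70.9% ± 3.50 at 29 nt. For these 3 ends all mature libraries were higher in level, and no ratio was called (adjusted p = 0.171 for uniq_5184017 and 0.0934 for uniq_1435444). With long taken as 28 to 32 nt, uniq_1435444 was called longer in mature testis (log2 change 1.26, edgeR adjusted p = 0.0228). The 3 ends were picked by their mature CPM, so a higher mature level was favoured by the choice and is no separate finding. Their levels were called higher in mature testis, by a log2 change of 1.48 ± 0.62, 1.48 ± 0.61 and 1.93 ± 0.61 with TMM scaling and 3.61 ± 0.89, 3.62 ± 0.85 and 4.09 ± 0.84 with library totals (SE, all edgeR adjusted p under 0.05). Without immature replicate 3 none of these TMM calls held, and that of uniq_2089930 was also lost without immature replicate 1.

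Over all selected ends the direction of level calls depended on the scaling. With TMM factors, 1190 of 5474 tested ends (21.7%) were called higher in mature testis against a background of 15.8% of the 33902 tested ends, and 1061 (19.4%) higher in immature testis against a background of 34.6%. With library totals these were 4336 (79.2%) against a background of 64.4%, and 803 (14.7%) against a background of 31.1%. The rule itself drew mainly on mature reads, so nothing is read from the distance to these backgrounds. Of the called ends, 52.9% with TMM factors and 84.4% with totals were on the mature side, and the median log2 change over all tested ends moved by 2.14 between the scalings. The TMM count of ends higher in mature testis went from 309 without immature replicate 3 to 2950 without mature replicate 3, and leaving out any library other than immature replicate 1 moved it by over 1.5 times. Of the 8 tRNA ends, 7 were called higher in immature testis on both scalings.

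The base that follows a 3' end was read from the trunk, for reads of 25 to 31 nt that lie on it. It was set against the share expected if the reads of each end in a library were spread evenly over these lengths. Without the tRNA ends, uridine followed 27.9%, 30.7% and 29.5% of reads in the immature and 35.9%, 37.8% and 36.4% in the mature libraries. The expected shares were 31.1%, 31.96% and 31.1% and 32.97%, 33.3% and 33.1%. Uridine was thus under its expected share in each immature library and above it in each mature one, by -2.03 ± 1.00 and 3.59 ± 0.803 points (SD, n = 3 each, exact permutation p = 0.1). With the tRNA ends the values were -5.77 ± 1.62 and 3.65 ± 0.650 points (exact permutation p = 0.1). With each end given equal weight, the difference between the groups was 2.89 points instead of 9.42. The expected shares take no account of the lengths the reads have in each group. Without the tRNA ends, trunks had uridine in 35.1% and 52.1% of ends at positions 31 and 32. At positions 27 to 30 it was 21.3% to 25.2%. Mature reads were longer there, so a preference for a base was not told apart from the shift of length. The same holds for the other bases below.

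Cytosine went the opposite way to uridine. Without the tRNA ends, cytosine after the 3' end was above its expected share in each immature library, by 4.16, 0.397 and 0.835 points, and under it in each mature one, by -2.15, -1.998 and -2.82 points (means 1.80 ± 2.06 and -2.32 ± 0.439, SD, n = 3 each, exact permutation p = 0.1). Guanine was under its expected share in every library, and every mature library lay below every immature one (-2.52 ± 1.13 and -4.21 ± 0.639 points, exact permutation p = 0.1), but with the tRNA ends its groups overlapped (exact permutation p = 0.9). Adenine was above its expected share in every library, by 2.75 ± 0.474 and 2.95 ± 0.435 points, and its groups overlapped.

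By length, uridine differed most after 28 nt and 31 nt reads. After reads of 28 nt it stood in 26.9%, 29.7% and 25.9% of the immature and 40.3%, 40.7% and 37.7% of the mature cases, while position 29 of the trunks was uridine in 21.3% of ends. After reads of 31 nt it stood in 24.5%, 43.9% and 39.3% against 58.8%, 59.9% and 59.8%, with 52.1% of trunks having it at position 32, a base known only from the last base of 32 nt reads. After reads of 25 nt the order was the opposite, with 35.7% ± 2.23 in immature and 29.7% ± 0.352 in mature testis. Around the mature mode of 4762 ends, uridine was the trunk base in 28.3%, 18.5%, 24.8%, 27.6% and 26.05% of ends at the positions from 4 before the last base up to the last base itself. It was 36.7%, 40.0% and 41.0% at the 3 bases beyond it. In the smaller set with at least 10 reads in each library, it was 31.8% at the last base of the immature mode (538 ends) and 28.1%, 34.1% and 33.9% beyond it. Around the mature mode of that set (527 ends) it was 26.6% at the last base and 34.9%, 39.9% and 36.7% beyond it. Mature modes were mostly long, so the bases beyond them fall on late trunk positions, where uridine differs by position as given above. No share matched by position was computed, so a preference beyond the mode was not told apart from this.

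Reads often left the trunk in their last base. Without the tRNA ends, 23.1%, 31.9% and 30.6% of immature and 30.4%, 32.2% and 29.3% of mature reads that otherwise followed the trunk carried another base at the last position. The groups overlapped (28.6% ± 4.78 and 30.6% ± 1.48, SD, n = 3, exact permutation p = 0.7), with immature replicate 1 the lowest. At 1 nt before the last base the share was 2.90% ± 0.370 and 2.45% ± 0.179, and at 4 nt before it 0.956% ± 0.144 and 0.443% ± 0.0212. Each trunk base is set by reads that run past it, where there are any, so last bases mostly took no part in that choice. Bases inside a read were thus favoured to follow the trunk. The last base found in place of the trunk base was uridine in 16.7% ± 4.10 of immature and 20.6% ± 0.408 of mature reads, adenine in 9.97% ± 1.22 and 9.72% ± 0.950, cytosine in 7.19% ± 0.599 and 6.17% ± 0.559, and guanine in 5.06% ± 1.18 and 4.65% ± 0.784. These shares are of reads at trunk positions with a different base. The share was not the same at all lengths: in mature testis it went from 22.1% ± 1.58 at 25 nt to 41.7% ± 0.900 at 31 nt.

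Off-trunk last bases were found in most ends. Over 550 ends with at least 10 reads in each library and no tRNA start, off-trunk last bases had a median share of 25.8% in immature and 28.6% in mature testis. In 539 of them the share was above that of off-trunk bases 4 nt before the last. The definition of the trunk favours that order, so nothing is read from it. In uniq_5184017 the 30 nt sequences differ in the last base alone, with capitals marking the base off the trunk.
uniq_5184017: tggaagtctgagagttctgttctggccagg
uniq_5064998: tggaagtctgagagttctgttctggccagT
uniq_4802770: tggaagtctgagagttctgttctggccagA
At 30 nt this end closed with the trunk base guanine in 51.1% ± 5.76 of immature and 51.3% ± 4.78 of mature reads, with uridine in 33.3% ± 2.70 and 32.2% ± 5.63, and with adenine in 11.4% ± 2.40 and 12.1% ± 1.29. The shares overlapped between the groups for each of these bases. In uniq_2089930 at 28 nt the trunk base cytosine closed 92.7% ± 2.61 and 91.6% ± 1.00 of reads.

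At some ends and lengths the table had the off-trunk last bases and no sequence with the trunk base. Whether such sequences were left out when the table was made is not given. Their absence is therefore not read as a trait of the small RNAs. In uniq_1419887, 25 nt reads closed with uridine in 66.7% ± 16.0 of immature and 48.3% ± 4.91 of mature cases and with adenine in 28.02% ± 13.7 and 45.8% ± 1.16, and 0 reads closed with the trunk base cytosine, although longer reads run through it. Among 6072 combinations of an end and a length with at least 100 reads on the trunk or off it in the last base only, 162 (2.67%) had no read with the trunk base. They belonged to 98 ends, 4 of them were at tRNA ends, and 47 were among the 1580 combinations at 30 nt. The 25 nt share of uniq_1419887 given above therefore counts only reads that are off the trunk. At 30 nt its most read sequences, uniq_2550750 and uniq_2900145 (51 and 34 reads), also leave the trunk in the last base.

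Neighbouring starts let 3' ends be compared with lengths. Of the 6627 ends, 1623 (24.5%) had another selected start 1 to 6 nt away on the same trunk. Of pairs with a mature mode for both starts, 56 of 132 that lay 1 nt apart (42.4%) had their modes at the same 3' end, and 24 (18.2%) had the same length. At 2 nt apart, 24 of 117 pairs (20.5%) shared the 3' end and 23 (19.7%) the length. At 3 nt these were 28 of 206 (13.6%) and 47 (22.8%), and at 4 nt 4 of 124 (3.23%) and 32 (25.8%). At 5 nt these were 9 of 184 (4.89%) and 42 (22.8%). At 6 nt apart 1 of 148 pairs (0.676%) shared the 3' end and 34 (23.0%) the length. By count, a shared 3' end was the commoner case for starts 1 nt apart, and a shared length for starts 3 nt or more apart. Modes lie within 25 to 32 nt, so fewer pairs of lengths can share a 3' end as the distance grows. The shares that unrelated ends would give were not computed, so nothing is read from which case was commoner. Pairs that share a trunk are not independent, and these counts were not tested.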

How the data were processed

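Small RNA libraries were made from 3 immature and 3 mature testis samples, per the labels' protocols. The deposited table gives raw read counts as whole numbers, 1 column per library and 1 row per sequence, per the file headers. Per the submitters' processing notes Bowtie was used, with no version. The build and the calling of piRNAs were not given in the sources used here. Nor was it given whether sequences of known RNAs were left out of the table. A sequence, or a length of an end, without reads may thus have been left out. Totals therefore count the reads of this table, 1382083 to 4550970 per library, and not sequencing depth. All columns of counts were used, and 0 were left without a sample.

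Sequences were grouped by their first 20 nt. The ends described, the named ends and the lists were chosen with earlier results of these data known. Named ends are the 5 selected ends with the highest mean CPM in each group, the 3 with the largest called rise of the ratio (no fall was called), and the 3 with the largest second mode. 1 of these ends, and 1 end just outside the rule, are not reported here. tRNA ends begin within 2 mismatches of tRNA 5' fragments, which were recognised from general knowledge of tRNA sequences. A trunk extends the 20 nt by the base with most reads in longer sequences. Shares per library were compared by exact two-sided permutation tests over 3 against 3 libraries. Counts per end went into edgeR 4.0.16 under R 4.3.3 (quasi-likelihood test, Benjamini-Hochberg, adjusted p under 0.05). The ratio test used ends with at least 10 reads in each library and the level test used filterByExpr. Both tests were tested on simulated counts. The SE of a log2 change is its size divided by the root of F. Alternatives were another definition of the end, filters, length classes, scalings, DESeq2 1.42.0, sequences on the trunk only, a replicate block and leaving out each library. Python 3.11.15, numpy 2.4.6 and pandas 2.3.3 were used. No genome was used, so positions, annotation and the origin of last bases off the trunk were not checked. No molecular identifiers were counted, so limits for counts of 0 cover counting error only.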

Additional observations from a re-analysis of the deposited data

How the results depend on the processing

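Depth limits the profiles of single ends, since 557 of 6627 ends had 10 reads in each library. The difference of the share of table reads (11.3 points, mature minus immature) was 17.9 with ends defined by 25 nt, 6.90 without sequences read once, 20.9 without tRNA ends and 6.02 with each sequence counted once. The difference of the long share (2.38 points) was 25.3 with 25 nt, -3.03 without sequences read once, 29.4 without tRNA ends, 18.7 with each end equal, 4.50 with long as 28 to 32 nt, -9.55 with long as 30 to 32 nt, and -0.161 to 4.97 when leaving out each library. With 25 nt the tRNA ends held 1.49% to 11.9% of immature selected reads, against 50.9% to 62.8% with 20 nt. Uridine after the 3' end (9.42 points) gave 4.82 with 25 nt, 5.61 without tRNA ends and 2.89 with each end equal. Alternatives added after seeing the data, with each end equal and no tRNA ends, gave 18.9 points for the long share and 2.91 for uridine. Also added were reads of 25 to 30 nt only (8.65 points of uridine) and reads off the trunk in their last base counted 1 nt shorter (7.46).

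Selected ends called longer (304) numbered 33 relative to the pool, 512 with at least 5 reads, 152 with at least 20, 165 on the trunk only, and 272 to 365 when leaving out each library. Those called shorter (0) numbered 226 relative to the pool, 1 with at least 5 reads, and 0 to 3 when leaving out each library. Fewer ends are tested at 20 reads and on the trunk. Level calls higher in mature testis (1190) numbered 4336 with library totals, 3835 with upper quartile factors, 2221 with DESeq2, 4296 without the filter, and 309 to 2950 when leaving out each library. For the other changes the cause was not tested.

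Relative to the pool the ratio turned in sign for uniq_2330440 (-0.74), uniq_172762 (-1.52), uniq_170669 (-1.36), uniq_5184017 (-1.57), uniq_4072286 (-1.89), uniq_1435444 (-1.40), uniq_5045757 (-1.07), uniq_1419887 (-1.89) and uniq_3071347 (-1.48). It also turned for uniq_2089930 with long as 28 to 32 nt (0.36). When leaving out each library it ran from -0.13 to 0.63 for uniq_4072286 and from -0.36 to 1.00 for uniq_3071347. The level of uniq_4072286 (-0.64) was 1.63 with library totals, 0.50 with upper quartile factors, 2.11 without the filter, and -0.97 to 1.18 when leaving out each library. Over the 14 named ends, 151 of the ratio values under alternatives kept direction and side of the threshold, 12 turned, 6 fell below the threshold and 5 passed it. Over 8 ends, 76 level values kept both, 8 turned and 4 fell below it.

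Replicate numbers did not pair the libraries. For this, each library's deviations from its group mean (log2 CPM per end) were correlated between the groups. Same-numbered libraries gave 0.03, -0.09 and -0.003 over ends. With a replicate block the ratio test called 299 ends longer and 0 shorter, and the level test 664 on the mature and 986 on the immature side. In these deviations, not every library correlated best with its own number.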
